A study of Mus musculus with 18 samples.

Results

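RNA-seq of sorted mouse epidermal cells was used to follow the 9 keratin genes of the interfollicular epidermis through chemical skin carcinogenesis, with and without the RNA-binding protein tristetraprolin (TTP), which is encoded by Zfp36. The genes were chosen by symbol from the table of 52636 genes and were 3 keratins of the basal layer (Krt5, Krt14 and Krt15) and 6 keratins of the layers above it (Krt1, Krt10, Krt2, Krt77, Krt78 and Krt80). Living cells positive for EpCAM and negative for CD45, CD140a and CD31 came from mock-treated back skin, from nontumoral skin beside tumors after 7,12-dimethylbenz[a]anthracene (DMBA) and 12-O-tetradecanoylphorbol-13-acetate (TPA), called treated in the labels, and from papillomas, called tumor below. Each stage was sampled in Zfp36 fl/fl mice and in Zfp36 ΔEP littermates (Zfp36 ΔK14 in the labels), all on a C57BL/6 background. Both genotypes carried the floxed Zfp36 alleles, and ΔEP mice also carried a Cre recombinase driven by a human keratin 14 promoter. That promoter is known to be active in basal cells of the epidermis, hair follicle and sebaceous gland, so the deletion is not limited to the interfollicular layers. The labels name whole skin as the source, whereas the study's methods describe sorted cells. The study's methods give an age for the first DMBA application and a range of weeks of TPA over its experiments, but not the age at collection or the duration for each of these samples. Whether the replicates of a group came from separate mice is not given in the sources used here, so p-values measure the spread between samples.

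Keratins form the intermediate filaments of epithelial cells and assemble as pairs of 1 type I and 1 type II chain. Basal keratinocytes make Krt5 (type II) with Krt14 (type I), and Krt15 is a further type I chain of basal cells and of the hair follicle bulge. When cells leave the basal layer they switch to Krt1 (type II) with Krt10 (type I), and the type II chains Krt2, Krt77, Krt78 and Krt80 accompany later steps of differentiation. In mice Krt2 belongs mainly to ear, tail and sole epidermis rather than to back skin.

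The 9 genes lie in the keratin clusters on the minus strand of chromosomes 15 (type II) and 11 (type I) of GRCm38. Krt5 spans chr15:101707070-101712898 and Krt77 chr15:101858731-101869705, whereas Krt14 spans chr11:100203162-100207548 and Krt10 chr11:99385254-99389364. The GENCODE annotation places an antisense gene, Gm11940, across 146 exonic bases of Krt10, an antisense gene, Gm35853, across 263 exonic bases of Krt80, and a predicted microRNA gene, Gm44323, across 129 exonic bases of Krt5. Whether strand was used in counting is not given in the sources used here, so reads over these bases cannot be assigned to 1 strand.

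RefSeq promoter windows of GRCm38.p6, from 250 bases before to 50 bases after the start, were present for 6 of the 9 genes. The windows were searched on both strands for the TATA box hexamer TATAAA and for its variants, of which one was TATATA and the other was GATAAA. They were also searched for GCCNNNGGC, which AP-2 factors bind, and for TGANTCA, which AP-1 binds. In 5 of the 6 genes a TATA-like hexamer started on the sense strand within the 40 bases before the start, an arrangement found in 3.95% of 32851 windows. The 30 bases around it are printed 5′ to 3′ because a TATA box, where one is used, positions the start of transcription, with the hexamer in capitals. They run from chr15:101712918-101712947 for Krt5, chr11:99389375-99389404 for Krt10, chr15:101818181-101818210 for Krt2, chr15:101869718-101869747 for Krt77 and chr15:101954300-101954329 for Krt78.
Krt5: cacttctaagggGATAAAaggggacctcaa
Krt10: acgccctctcagTATATAaaggctcggcac
Krt2: ctagttggcaggTATATAagggaccctgtg
Krt77: agcaggtgtgtgTATATAtagggactgagc
Krt78: aggacgggagggGATAAAagtctcgtgcca
Within the 40 bases before the start, TATATA stood in Krt10, Krt2 and Krt77, and GATAAA stood in Krt5 and Krt78. Farther upstream, GATAAA also stood on the sense strand at −198 in Krt2 and at −169 in Krt77. TATATA reads the same on both strands, and in Krt10 its last 4 bases belong also to the hexamer TATAAA. The listed Krt14 window, chr11:100205981-100206280, lies inside the annotated gene and held none of the hexamers. Neither GCCNNNGGC nor TGANTCA occurred in any of the 6 windows, against 16.6% and 7.81% of all windows. Anywhere on either strand, TATAAA occurred in 13.6% of all windows, TATATA in 5.67% and GATAAA in 10.1%. A match is a description of letters and does not show a bound site.

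Total counts per library ran from 2808550 to 9617985, with a median of 5567614. Mock ΔEP replicate 3 had the same count as replicate 2 in all genes, so the pair entered as 1 library, which left 17 libraries and 2 in the mock ΔEP group. Zfp36 itself was lower in every ΔEP library, at 10.1 to 18.6 CPM (counts scaled by library size) in tumors against 177 to 242 CPM in fl/fl tumors. The log2 difference between genotypes was −4.10 ± 0.30 (SE, n = 3 and 3, edgeR adjusted p = 0.00882) in tumors and −3.99 ± 0.35 (edgeR adjusted p = 0.0391) in treated skin. In mock skin it was −4.13 ± 0.86, which was not called after adjustment over all genes. All 5 markers of epithelial identity were present, with summed levels of 3258 to 11570 CPM per library. Fibroblast markers summed to 377 to 1678 CPM in mock and treated libraries and to 30.4 to 386 CPM in tumors, although the sort removed CD140a-positive cells. Of this list only Dcn was lower in every tumor. It lay at 0.19 to 10.1 CPM there, against 47.1 to 976 CPM in mock and 164 to 843 CPM in treated libraries. Melanocyte markers (5 genes) summed to 12.1 to 37.1 CPM in tumors and to 49.0 to 335 CPM in the other libraries, so their sum was lower in every tumor. Taken singly, only Dct and Mitf were lower in every tumor. Leukocyte markers (6 genes) summed to 63.3 to 90.6 CPM in ΔEP tumors and to 19.9 to 33.1 CPM in fl/fl tumors. Cd74 alone ranged from 10.7 to 83.6 CPM over the tumors, and no other gene of this list exceeded 5.34 CPM there.

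Some libraries stood apart from the others of their group. Mock replicate 1 of both genotypes held 2668 and 2584 summed CPM of hair matrix and inner root sheath markers (11 of 12 genes found), against 652 to 738 CPM in the other mock libraries. The sum of this list was 745 to 2133 CPM in treated skin and 128 to 244 CPM in the 6 tumors. The sum was thus lower in every tumor than in any other library. Gata3 alone gave 168 to 702 CPM in mock skin and 89.5 to 158 CPM in tumors. Only for Gata3 and Msx2 did every mock library lie above every tumor. Krt71, for example, ranged from 0.39 to 574 CPM in mock skin, 71.0 to 263 CPM in treated skin and 0.18 to 7.33 CPM in tumors. In mock replicate 1 of both genotypes the 9 keratins together took 0.397% and 0.338% of counts, against 2.14% to 2.46% in the other mock libraries. Fl/fl tumor replicates 2 and 3 held 4296 and 7684 summed CPM of 7 sebaceous gland markers, against 505 to 685 CPM in the other 4 tumors. Most of that sum was Scd1, a fatty acid desaturase that ranged from 129 to 6079 CPM over the tumors. Fl/fl tumor replicate 1, which had the fewest counts, lay within the range of the ΔEP tumors in its sebaceous sum (527 CPM). Its Krt5 and Krt14 lay above those of every other tumor, and the ΔEP tumors came next. The part of these marker levels in the keratin results was not tested, and results that rest on these libraries are given with and without them. In bulk samples fewer cells of a type and less RNA per cell cannot be told apart.

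**Figure D1:**
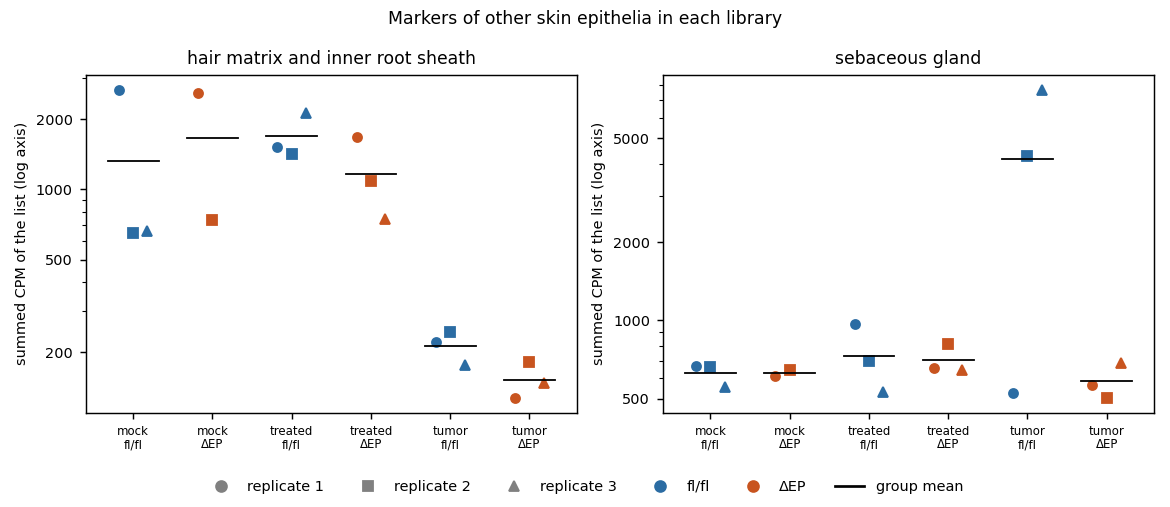
Summed CPM (log axis) of the hair matrix and inner root sheath markers (left) and sebaceous gland markers (right) in each of the 17 libraries, with group means as lines. Mock replicate 1 of both genotypes lies at 2668 and 2584 CPM on the left, and fl/fl tumor replicates 2 and 3 lie at 4296 and 7684 CPM on the right.

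Per kilobase of the longest coding transcript, the basal pair was the most abundant in tumors. Krt14 reached 2279 to 9242 CPM per kb in tumors and Krt5 1192 to 5517 CPM per kb, and their ranges overlapped. Krt1 followed in tumors at 209 to 785 CPM per kb and Krt10 at 121 to 445 CPM per kb. Krt15 ran from 42.5 to 122 CPM per kb there, so that its highest tumor touched the lowest Krt10 value. Krt80 (1.08 to 3.93 CPM per kb), Krt77 (0.69 to 2.12 CPM per kb), Krt78 (0.17 to 0.88 CPM per kb) and Krt2 (0.23 to 1.76 CPM per kb) closed the order with overlapping ranges. In mock skin the order differed for Krt77, which lay at 98.8 to 770 CPM per kb and overlapped Krt1 (56.6 to 1259), Krt10 (184 to 2108) and Krt15 (156 to 1492 CPM per kb). Krt2 was low everywhere, with 3 to 19 counts per library, and passed the filter on low counts in 4 of the 11 comparisons. Krt78 passed it in 10, and the other 7 genes passed in all 11.

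Krt5 and Krt14, the chains of the basal layer, were the members that were higher in tumors than in treated skin. In ΔEP tumors Krt14 measured 10982, 11329 and 11548 CPM, whereas ΔEP treated skin had 974, 2494 and 5335 CPM. Krt5 measured 9915, 9007 and 10083 CPM in ΔEP tumors against 1427, 2324 and 4645 CPM in ΔEP treated skin. The groups did not overlap for either gene. Both rose in the edgeR quasi-likelihood test, Krt14 by 1.86 ± 0.51 (log2, SE, adjusted p = 0.0210) and Krt5 by 1.71 ± 0.39 (adjusted p = 0.0105). The Krt5 call was kept when any 1 library was left out. The Krt14 call was lost without ΔEP treated replicate 2 (adjusted p = 0.0711), ΔEP tumor replicate 1 (0.0511) or ΔEP tumor replicate 3 (0.0593). In a single fit of all libraries both calls were lost, at adjusted p-values of 0.0952 for Krt14 and 0.0794 for Krt5.

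In fl/fl mice the basal pair was less uniform across tumors. Krt14 measured 15693, 3870.1 and 4164 CPM in fl/fl tumors and 2360.4, 3361 and 1563 CPM in fl/fl treated skin, so every tumor lay above every treated library. Krt5 measured 12120, 2618 and 2807 CPM in fl/fl tumors and 2833, 4268 and 2278 CPM in treated skin, and these groups overlapped. Replicate 1, the tumor with low sebaceous markers, was far above the others in both genes. The log2 difference was 1.68 ± 0.58 for Krt14 (edgeR adjusted p = 0.0669) and 0.87 ± 0.59 for Krt5 (adjusted p = 0.305), and neither was called. At nearly the same fold, DESeq2 (adjusted p = 0.0138) and the exact test of edgeR (adjusted p = 0.0160) called Krt14 higher in fl/fl tumors. Without tumor replicate 1 the Krt5 difference turned to −0.22 (adjusted p = 0.544) and the Krt14 difference was 0.71 (adjusted p = 0.0871).

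Krt15, the third basal keratin, went the other way from Krt5 and Krt14. It measured 188, 87.8 and 124 CPM in fl/fl tumors, 353, 784 and 290.3 CPM in fl/fl treated skin, and 265, 1539 and 1651 CPM in fl/fl mock skin. In ΔEP mock skin it measured 288 and 2536 CPM, in ΔEP treated skin 147, 293 and 289 CPM, and in ΔEP tumors 208, 78.2 and 72.2 CPM. Within each genotype all tumors lay below all mock libraries, and in fl/fl they also lay below all treated libraries. From treated skin to tumor Krt15 fell by 1.86 ± 0.42 on the log2 scale in fl/fl (edgeR adjusted p = 0.0188). In ΔEP its difference of −1.11 ± 0.45 was not called (adjusted p = 0.0818), although DESeq2 (0.0335) and the exact test (0.0451) called it, and 1 tumor overlapped treated skin. The fl/fl call was lost without fl/fl treated replicate 2 (adjusted p = 0.0539), fl/fl tumor replicate 2 (0.0554) or fl/fl tumor replicate 3 (0.0675). In ΔEP Krt15 passed without treated replicate 1 (adjusted p = 0.0347) or without tumor replicate 1 (0.00991).

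Of the early suprabasal pair, Krt10 was lower in tumors and Krt1 showed no called difference. Krt10 measured 572, 579.9 and 359 CPM in ΔEP tumors, against 805, 914 and 3845 CPM in ΔEP treated skin, without overlap. It fell by 1.94 ± 0.56 on the log2 scale (edgeR adjusted p = 0.0262). Without ΔEP treated replicate 3, the library with the highest Krt10, the difference was −0.85, below the 2-fold limit (adjusted p = 0.0293). Leaving out ΔEP tumor replicate 1, 2 or 3 gave adjusted p-values of 0.0663, 0.0653 and 0.102, and the single fit of all libraries gave 0.161. In fl/fl Krt10 measured 403, 253 and 931 CPM in tumors, against 1177, 2403 and 359.6 CPM in treated skin, with overlap (−1.30 ± 0.69, adjusted p = 0.196).

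Krt1, the partner of Krt10, measured 1356, 1926 and 1093 CPM in ΔEP tumors and 865, 1285 and 5609 CPM in ΔEP treated skin. In fl/fl it measured 1052, 514 and 1224 CPM in tumors, against 1080.5, 2100.3 and 306 CPM in treated skin. Tumor and treated libraries overlapped in both genotypes. The log2 difference was −0.89 ± 0.61 in ΔEP (edgeR adjusted p = 0.279) and −0.32 ± 0.61 in fl/fl (adjusted p = 0.721). ΔEP treated replicate 3, with the highest Krt1 and Krt10 of treated skin, also held the highest summed leukocyte markers. The sum was 176 CPM, against 12.2 to 90.6 CPM in the other libraries, and Cd74 alone reached 172 CPM. The part of this in the keratin values of that library was not tested. Without that library the ΔEP difference of Krt1 was 0.35.

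Krt77, a type II chain of suprabasal cells, had the largest difference of the 9 genes in each comparison of tumors with treated or mock skin. It measured 333, 836 and 152 CPM in fl/fl treated skin and 2.51, 4.12 and 6.23 CPM in fl/fl tumors. In ΔEP it measured 45.8, 267 and 99.2 CPM in treated skin and 2.01, 2.18 and 4.37 CPM in tumors. No tumor overlapped any other library. Tumor levels rested on 5 to 27 counts per library, so their precision is limited by counting. From treated skin to tumor Krt77 fell by 6.65 ± 0.72 on the log2 scale in fl/fl (edgeR adjusted p = 0.00186), and in ΔEP its log2 difference was −5.70 ± 0.73 (adjusted p = 0.00111). Both calls were kept when any 1 library was left out.

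Krt80, which is made in differentiating cells, was also lower in tumors of both genotypes. It measured 74.9, 80.3 and 28.8 CPM in fl/fl treated skin and 4.52, 13.9 and 15.4 CPM in fl/fl tumors. In ΔEP it measured 12.9, 36.0 and 63.1 CPM in treated skin and 4.25, 7.80 and 6.65 CPM in tumors. The groups did not overlap in either genotype. Krt80 fell by 2.40 ± 0.50 on the log2 scale in fl/fl (edgeR adjusted p = 0.0142), with a log2 difference of −2.66 ± 0.52 in ΔEP (adjusted p = 0.00555). The fl/fl call was lost without treated replicate 1 (adjusted p = 0.0625) or treated replicate 2 (0.0529), and the ΔEP call was kept when any 1 library was left out.

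Krt78, a suprabasal type II chain, was at 0.57 to 3.01 CPM in the 6 tumors (3 to 6 counts each) and at 1.97 to 16.7 CPM in the 6 treated libraries. Its log2 difference was −2.06 ± 0.57 in ΔEP (edgeR adjusted p = 0.0223), where the groups did not overlap, and −2.57 ± 0.91 in fl/fl (adjusted p = 0.0734), where they did. The ΔEP call was lost without ΔEP treated replicate 2 (adjusted p = 0.0903), ΔEP tumor replicate 2 (0.0820) or ΔEP tumor replicate 3 (0.0991), and in the single fit of all libraries (0.224). In fl/fl Krt78 passed without tumor replicate 1 (adjusted p = 0.0343), with DESeq2 (0.0247) and with the exact test (0.0325). Krt2 was at 0.54 to 1.54 CPM in treated skin and at 0.61 to 4.59 CPM in tumors, and was too low to be tested between them.

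In counts, 3 of the 8 members tested passed an adjusted p under 0.05 with a fold change over 2 between fl/fl tumor and treated skin, all lower in tumors, where 18% of the 15362 genes tested were called (7.5% higher, 10.5% lower). In ΔEP 6 of 8 passed, 2 higher (Krt5, Krt14) and 4 lower (Krt10, Krt77, Krt78, Krt80), where 26% of 15289 genes were called (10.5% higher, 15.5% lower). Whether the change from treated skin to tumor differed between genotypes was tested as an interaction, in which 0 of 8 members and 0.0118% of all genes passed. An unadjusted p under 0.05 was found there for 0 members, against 13.2% of all genes. DESeq2 also called 0 members for this interaction, against 1.21% of all genes. Groups did not overlap for 4 members in fl/fl and 6 in ΔEP, against 45.9% and 52.2% of all genes tested. The median log2 difference of the 8 members was −1.58 in fl/fl and −1.53 in ΔEP, and that of all genes was −0.02 and −0.03. With plain library sizes the median of all genes moved to −0.50 and −0.47.

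**Figure D2:**
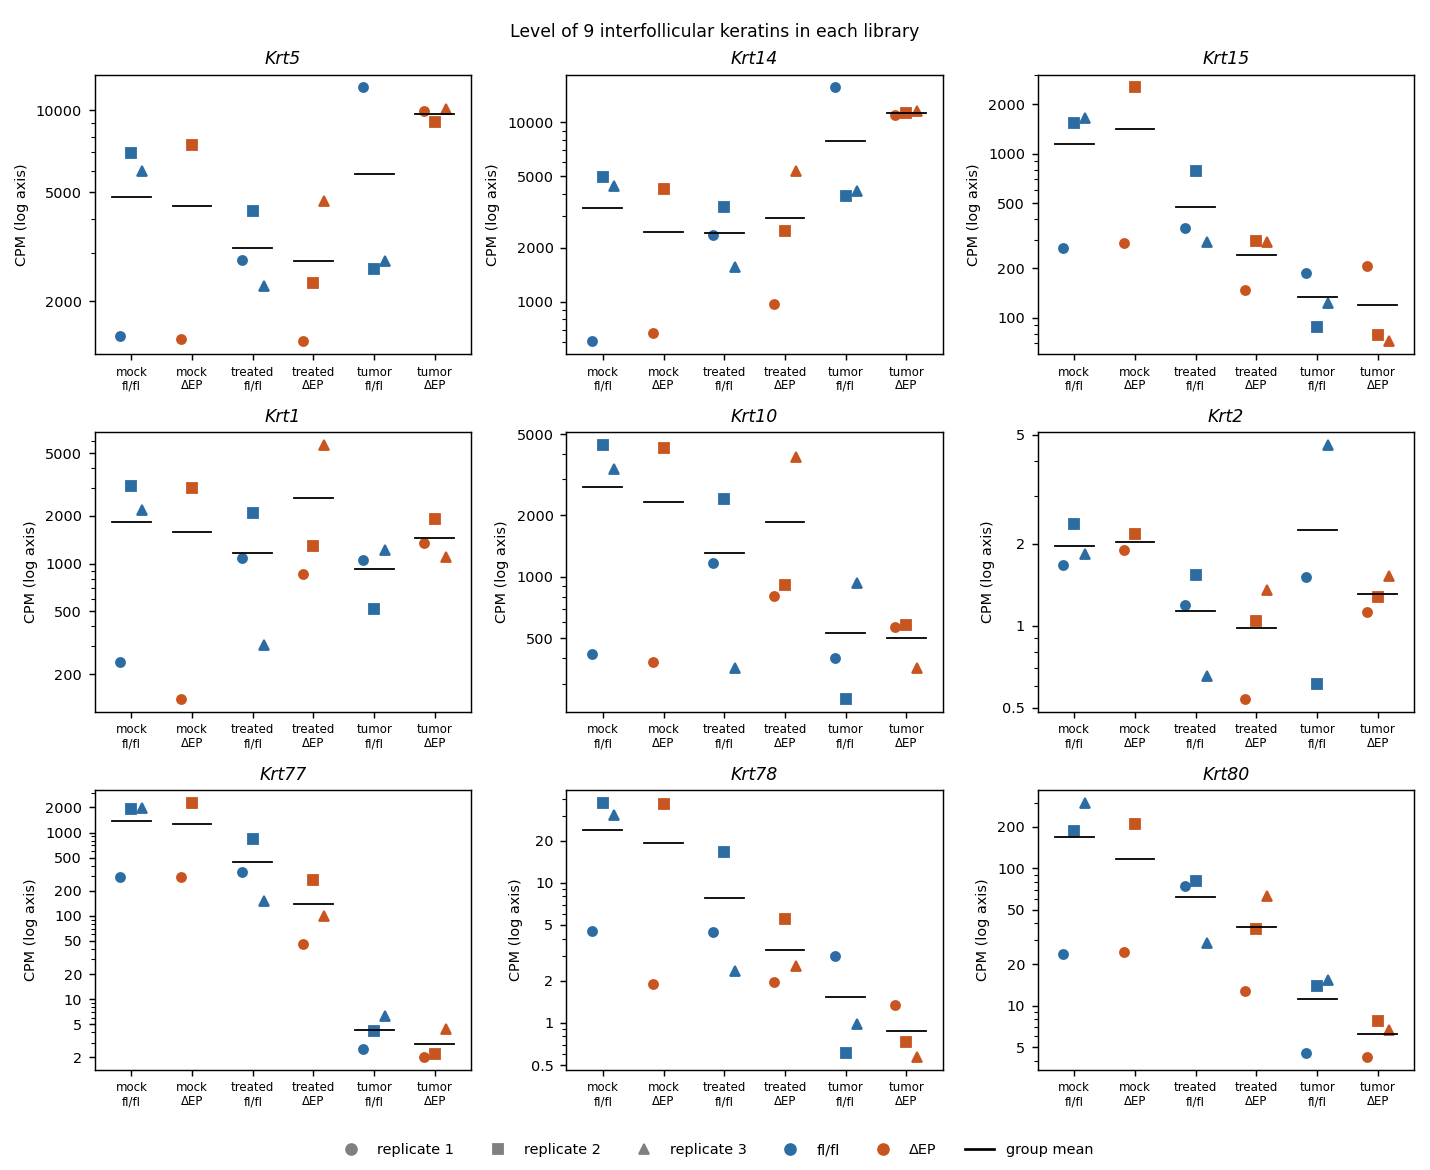
Level of each of the 9 keratins (CPM, log axis) in the 17 libraries, with replicates as symbols, genotypes as colors and group means as lines. Krt77 lies at 2.01 to 6.23 CPM in all 6 tumors and at 45.8 CPM or more elsewhere, and mock replicate 1 of both genotypes lies far below the other mock libraries for every gene but Krt2.

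Against mock skin, the members that fell in tumors of both genotypes were Krt15 and Krt77. Mock levels of Krt77 were 289.6, 1935 and 1949 CPM in fl/fl and 291 and 2256 CPM in ΔEP. Krt77 fell by 8.33 ± 0.91 on the log2 scale in fl/fl (edgeR adjusted p = 0.00811), with a log2 difference of −8.87 ± 0.99 in ΔEP (adjusted p = 0.00709). The log2 difference of Krt15 was −3.14 ± 0.68 in fl/fl (adjusted p = 0.0492) and −3.64 ± 0.90 in ΔEP (adjusted p = 0.0431). The fl/fl call of Krt15 lay close to the limit. It was lost with RLE scaling (adjusted p = 0.0506), with a mean count of at least 10 (0.0554), and without any 1 library other than mock replicate 1 (0.0804 to 0.197). The ΔEP call of Krt15 was lost without mock replicate 2 (adjusted p = 0.106) or any 1 tumor (0.0958 to 0.157). The members called were 2 of 9 in fl/fl, where 4.11% of genes were called (2.22% higher, 1.88% lower), and 4 of 9 in ΔEP, where 14.3% were called (7.05% higher, 7.22% lower). The contrasts with mock and with treated skin share the same tumor libraries and are not independent. In the interaction of tumor against mock skin with genotype 0 of 9 members and 0% of all genes were called by edgeR. An unadjusted p under 0.05 was found there for 0 members, against 8.18% of all genes.

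The other members called in ΔEP tumors against mock skin were Krt78 and Krt80. Mock levels of Krt80 were 24.6 and 209 CPM in ΔEP and 23.8, 188 and 298 CPM in fl/fl. Mock levels of Krt78 were 1.89 and 36.8 CPM in ΔEP and 4.55, 37.1 and 30.4 CPM in fl/fl. In ΔEP Krt80 fell by 4.30 ± 0.82 on the log2 scale (edgeR adjusted p = 0.0233), and the difference of Krt78 was −4.51 ± 1.13 (adjusted p = 0.0436). In fl/fl the differences were −3.90 ± 0.90 for Krt80 (adjusted p = 0.0552) and −4.18 ± 0.94 for Krt78 (adjusted p = 0.0538). Tumors and mock libraries did not overlap for these genes in fl/fl, and 4 of the 9 members were without overlap there, against 32.4% of all genes. In ΔEP 7 of 9 were without overlap, against 52.9% of all genes.

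The abundant pairs were not called between tumor and mock skin by the quasi-likelihood test. Krt14 measured 604, 4982 and 4418 CPM in fl/fl mock skin and 671 and 4230.1 CPM in ΔEP mock skin. Krt5 measured 1490.5, 6971 and 5999.9 CPM in fl/fl mock skin and 1459.6 and 7475 CPM in ΔEP mock skin. For ΔEP tumors all values of both genes were above mock skin, with log2 differences of 2.11 ± 0.72 for Krt14 (edgeR adjusted p = 0.0909) and 1.03 ± 0.63 for Krt5 (adjusted p = 0.291). Krt14 was called higher in ΔEP tumors by DESeq2 (2.14, adjusted p = 0.0116) and by the exact test of edgeR (2.11, adjusted p = 0.0272). In fl/fl they were 1.21 ± 0.83 (adjusted p = 0.389) and 0.25 ± 0.75 (adjusted p = 0.865). Krt10 measured 421, 4414 and 3392 CPM in fl/fl and 386 and 4261 CPM in ΔEP mock skin, with differences of −2.38 ± 0.85 (adjusted p = 0.131) and −2.29 ± 0.83 (adjusted p = 0.105). DESeq2 called Krt10 lower in tumors of both genotypes (adjusted p = 0.0242 in fl/fl and 0.0288 in ΔEP), as did the exact test (0.0424 and 0.0293). Krt1 measured 237, 3090.2 and 2189 CPM in fl/fl and 139 and 3017 CPM in ΔEP mock skin, with differences of −0.99 ± 0.79 (adjusted p = 0.459) and −0.20 ± 0.99 (adjusted p = 0.905).

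These contrasts depended on mock replicate 1. Without it, 6 of 9 members were called in fl/fl, all lower in tumors (Krt15, Krt1, Krt10, Krt77, Krt78, Krt80), where 21% of genes were called. The Krt10 difference was then −2.87 (edgeR adjusted p = 0.0125) and that of Krt1 −1.50 (adjusted p = 0.0349). In ΔEP, with a lone mock library assumed to vary like the tumors, 7 of 9 members were called, where 28.1% of genes were called: Krt14 was higher by 1.38 (adjusted p = 0.00155), and Krt10 (−3.11, adjusted p = 0.000163), Krt1 (−1.08, adjusted p = 0.0242), Krt15, Krt77, Krt78 and Krt80 were lower. Without ΔEP mock replicate 2 instead, 5 were called, where 22% of genes were called, with Krt5 higher by 2.72, Krt14 by 4.06 and Krt1 by 3.39, and with Krt77 (−6.66) and Krt80 (−1.98) lower. The direction of Krt1 in ΔEP thus turned with the mock library that was left out. Leaving out a tumor also changed calls. Without fl/fl tumor replicate 1, 2 or 3, the members called were 1, 0 and 1, against 3.65%, 0.492% and 0.406% of genes. Without ΔEP tumor replicate 1, 2 or 3 they were 0, 0 and 1, against 2.75%, 0.709% and 1.51% of genes. Without fl/fl mock replicate 2 or 3, 1 member was called in fl/fl (Krt77), against 0.181% and 0.31% of genes. Krt77 was below its limit in fl/fl without tumor replicate 2 (adjusted p = 0.0526), and in ΔEP without tumor replicate 1 (0.0508) or 2 (0.0619).

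**Figure D3:**
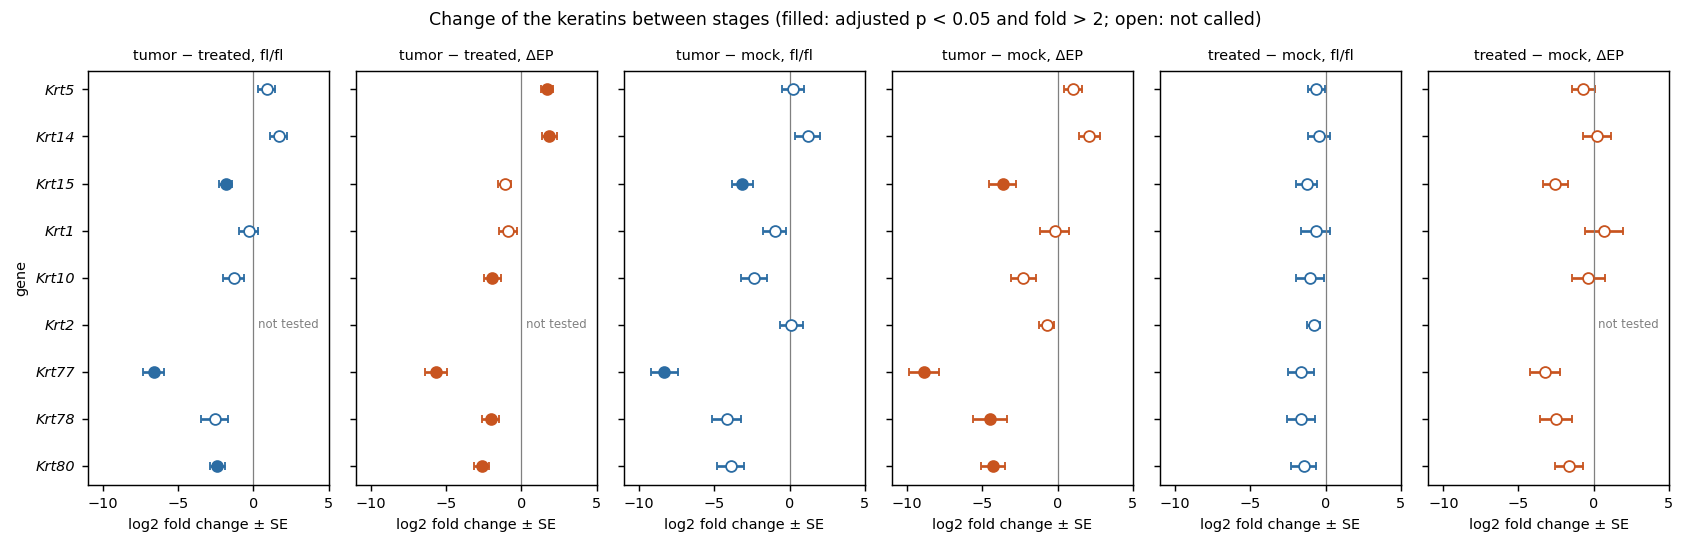
Log2 fold change ± SE of each keratin in the 6 stage comparisons from the edgeR fits, with filled points for called members (adjusted p under 0.05 and fold over 2) and open points for the others. Krt77 has the lowest value in each of the 4 tumor comparisons, from −5.70 to −8.87, and no point is filled between treated and mock skin.

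Between treated and mock skin no member was called. Log2 differences ran from −1.64 (Krt77) to −0.44 (Krt14) over 9 members in fl/fl, all of them lower in treated skin, and from −3.22 (Krt77) to 0.70 (Krt1) over 8 members in ΔEP. Of all genes 0% were called in both genotypes by edgeR. An unadjusted p under 0.05 was found for 0 members in fl/fl, against 5.5% of all genes, and for 2 in ΔEP, against 4.8% of all genes. The 2 were Krt77 (edgeR adjusted p = 0.841) and Krt15 (adjusted p = 0.889). DESeq2 and the exact test of edgeR also called 0 members in each genotype. Of all genes they called 0.711% and 0.626% in fl/fl, and 0.384% and 0.422% in ΔEP.

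The treated contrast in fl/fl again depended on mock replicate 1. Without it, 5 of 9 members were called lower in treated skin, where 15.1% of genes were called. They were Krt5 (−1.02, edgeR adjusted p = 0.0438), Krt15 (−1.72, adjusted p = 0.0187), Krt77 (−2.12, adjusted p = 0.0357), Krt78 (−2.19, adjusted p = 0.0402) and Krt80 (−1.96, adjusted p = 0.0137). Krt14 differed by −0.92 (adjusted p = 0.0734). In ΔEP 0 members were called when either mock library was left out.

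The comparison of genotypes asked whether loss of TTP altered the keratins at each stage. No member was called between ΔEP and fl/fl cells by edgeR, DESeq2 or the exact test in tumors (7 tested), treated skin (8 tested) or mock skin (8 tested), where edgeR called 0.0284%, 0.00616% and 0% of all genes. Over all genes DESeq2 called 2.62%, 0.222% and 0.0188% in the same order, and the exact test called 2.62%, 0.271% and 0.0126%. Groups overlapped for all 9 members at each stage, whereas they did not for 17.9%, 11.7% and 12.6% of all genes. An unadjusted p under 0.05 was found for 0 members in tumors, 2 in treated skin and 0 in mock skin, against 14%, 5.55% and 1.59% of all genes. The 2 were Krt15 (−0.99 ± 0.41 in ΔEP, edgeR adjusted p = 0.897) and Krt77 (−1.69 ± 0.73, adjusted p = 0.897).

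In tumors the genotype differences of the basal pair were 0.60 ± 0.55 for Krt5 (edgeR adjusted p = 0.652) and 0.39 ± 0.50 for Krt14 (adjusted p = 0.762). The nearest suprabasal member was Krt80, with −1.03 ± 0.46 (adjusted p = 0.367). Without fl/fl tumor replicate 1, the tumor with the highest Krt5 and Krt14, 3 of 7 members were called, where 16.9% of genes were called. Krt5 was then higher in ΔEP by 1.73 (adjusted p = 0.000177), Krt14 was higher by 1.38 (adjusted p = 0.000475) and Krt80 was lower by a log2 difference of −1.32 (adjusted p = 0.0132). The interaction of tumor against treated skin then called Krt5 (1.94, adjusted p = 0.0438), where 7.53% of genes were called. Replicate 1 is set apart by its own Krt5 and Krt14 levels, so the calls of these genes without it are a description and not a separate test. The 2 fl/fl tumors that remain are those with 4296 and 7684 summed CPM of sebaceous markers, and the part of this in the difference was not tested. Without fl/fl tumor replicate 2 or 3 no member was called, where 0.00711% and 0% of genes were called.

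Ratios of counts within a library are not affected by scaling and are given as a description. For Krt10 to Krt14 the log2 ratio lay between −0.80 and 0.01 in mock skin, between −2.12 and −0.27 in treated skin and between −5.28 and −2.16 in tumors, so tumors did not overlap the others. Unlike the levels, the ratio of mock replicate 1 was near that of the other mock libraries, at −0.52 in fl/fl and −0.80 in ΔEP. The ratio of Krt15 to Krt14, both type I chains of basal cells, was −1.69 to −0.74 in mock skin, −4.21 to −2.10 in treated skin and −7.32 to −5.07 in tumors, and the 3 stages did not overlap.

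Partners of a pair also changed relative to each other. The log2 ratio of Krt1 to Krt10 was −1.47 to −0.50 in mock skin, −0.23 to 0.54 in treated skin and 0.39 to 1.73 in tumors, so that counts of Krt10 exceeded those of Krt1 in every mock library and the reverse held in every tumor. Treated and tumor ranges overlapped here. The ratio of Krt5 to Krt14 was 0.44 to 1.30 in mock skin, −0.20 to 0.55 in treated skin and −0.57 to −0.15 in tumors, with overlap between neighboring stages. The ratio of Krt77 to Krt1, both type II suprabasal chains, was −0.68 to 1.07 in mock skin, −5.82 to −1.01 in treated skin and −9.79 to −6.96 in tumors, and the 3 stages did not overlap. The ratio of Krt1 to Krt5 was −3.39 to −1.17, −2.89 to 0.27 and −3.53 to −1.20 in the same order, with all stages overlapping. The ratio of Krt2 to Krt1 was −10.4 to −6.20, −12.02 to −8.87 and −10.6 to −8.06, and also overlapped.

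**Figure D4:**
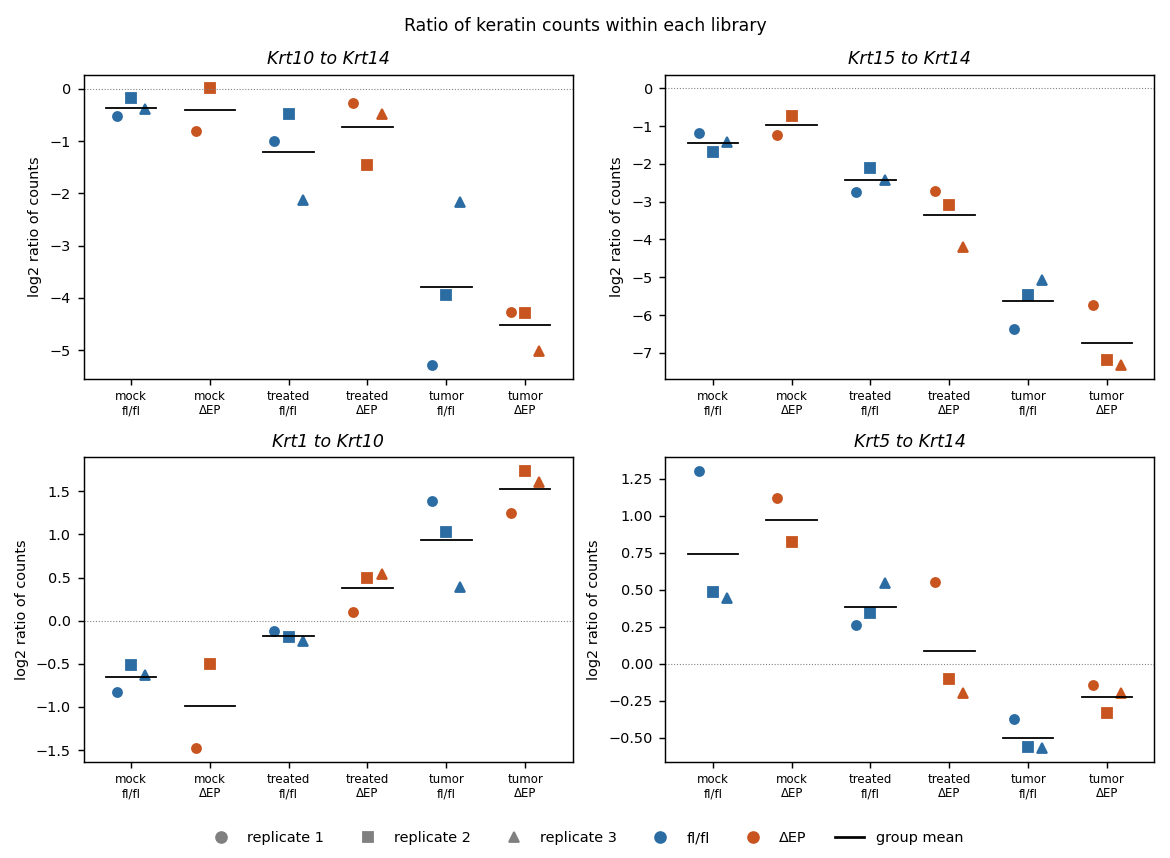
Log2 ratio of counts in each library for Krt10 to Krt14, Krt15 to Krt14, Krt1 to Krt10 and Krt5 to Krt14, with group means as lines. The ratio of Krt15 to Krt14 steps down from mock (−1.69 to −0.74) through treated (−4.21 to −2.10) to tumor (−7.32 to −5.07), and that of Krt1 to Krt10 lies below 0 in every mock library and above 0 in every tumor.

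The 9 keratins together took 0.338% to 2.46% of all counts of a library. The 6 suprabasal members took 0.0743% to 0.200% in tumors, 0.106% to 1.02% in treated skin and 0.0873% to 1.03% in mock skin. The 3 basal members took 0.617% to 1.99%, 0.297% to 1.09% and 0.250% to 1.43% in the same order. The shares of both groups therefore overlapped between stages.

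Genes that work with these keratins were read from lists, by tumor against treated skin. Of 11 basal layer genes, 8 rose and 0 fell in ΔEP, where 10.5% of all genes tested were called higher and 15.5% lower, among them Itga3 (3.04 ± 0.22, edgeR adjusted p = 0.000173) and Itgb1 (2.97 ± 0.22, adjusted p = 0.000173), whose integrin anchors basal cells. The median of the list was 2.97 (log2), against −0.03 for all genes. In fl/fl 4 rose and 1 fell, where 7.5% of all genes were called higher and 10.5% lower, with Lama3, a laminin chain of the basement membrane, at 1.58 ± 0.24 (adjusted p = 0.00492), Itgb1 at 1.87 ± 0.34 (adjusted p = 0.00889) and Dst, a plakin of hemidesmosomes, at −1.27 ± 0.37 (adjusted p = 0.0395). Tumor and treated libraries overlapped for Dst, and its call was lost in a single fit of all libraries (adjusted p = 0.148) and without treated replicate 1 or 2 or tumor replicate 2 or 3 (0.114 to 0.135), and that of Itgb1 was lost without treated replicate 1 (0.0519).

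Genes of the spinous and granular layers did not move as one. Of 13 tested in ΔEP, 2 rose and 4 fell (10.5% and 15.5% of all genes), and the list median was −0.04 (log2). Tgm1, a transglutaminase of the cornified envelope, rose by 1.38 ± 0.28 (edgeR adjusted p = 0.00669) and Cnfn, cornifelin, by 2.62 ± 0.62 (adjusted p = 0.0118). The differences were −4.79 ± 1.12 for Flg, filaggrin (adjusted p = 0.0113), −2.63 ± 0.56 for the caspase Casp14 (adjusted p = 0.00747) and −2.27 ± 0.43 for the desmoglein Dsg1a (adjusted p = 0.00488), although reads of Dsg1a may be shared with its near copies. The Flg call was lost without tumor replicate 3 (adjusted p = 0.0511). In fl/fl 2 of 13 tested rose and 1 fell, against 7.5% and 10.5% of all genes. Tgm1 stood at 1.78 ± 0.22 (edgeR adjusted p = 0.00249) and Dsg1a at −1.82 ± 0.31 (adjusted p = 0.00697). The fl/fl call of Dsg1a was lost in a single fit of all libraries (0.0552).

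Of 17 transcription factors of epidermal keratin genes and differentiation, 6 rose and 2 fell in ΔEP, where 26% of all genes were called, and 3 rose and 3 fell in fl/fl, where 18% were called. Prdm1 rose in both genotypes, by 2.53 ± 0.23 in ΔEP (edgeR adjusted p = 0.000298) and by 2.69 ± 0.25 in fl/fl (adjusted p = 0.00119). Grhl3 and Klf5 rose as well, by 2.02 ± 0.30 and 1.81 ± 0.30 in ΔEP. Hopx, a homeodomain protein, fell by 2.83 ± 0.27 in ΔEP (adjusted p = 0.000360), with −1.91 ± 0.34 in fl/fl (adjusted p = 0.00811).

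Of 13 genes that anchor keratins at desmosomes or through plakins, 3 rose and 0 fell in ΔEP, and 2 rose and 2 fell in fl/fl. The shares over all genes were 10.5% higher with 15.5% lower for ΔEP, and 7.5% higher with 10.5% lower for fl/fl. Dsg3, the desmoglein of lower layers, rose by 2.01 ± 0.29 in ΔEP (edgeR adjusted p = 0.00166) and 1.30 ± 0.35 in fl/fl (adjusted p = 0.0315). Dsc2 rose by 3.95 ± 0.29 in ΔEP (adjusted p = 0.000173) and by 2.65 ± 0.82 in fl/fl (adjusted p = 0.0491), and Ppl, periplakin, fell by 1.45 ± 0.30 in fl/fl (adjusted p = 0.0134). Without fl/fl tumor replicate 1 the fl/fl differences of Dsg3 and Dsc2 were 0.78 and 0.94, below the 2-fold limit. Without treated replicate 1, 2 or 3 both fl/fl calls were also lost (adjusted p from 0.0947 to 0.121 for Dsg3 and from 0.114 to 0.160 for Dsc2), and that of Ppl was lost without treated replicate 1 (0.0578), treated replicate 2 (0.0567) or tumor replicate 3 (0.0565). Of the 45 other keratin genes, 7 rose and 14 fell among 25 tested in ΔEP, and 4 rose and 12 fell among 30 tested in fl/fl.

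The genes whose pattern was most like that of Krt14 over the 17 libraries (Pearson's r of log2 CPM, 18243 genes compared) were Pqlc3 (0.98), Gpd2 (0.98), Adam8 (0.98), Serpinb1a (0.98) and Capg (0.98). Those most like Krt10 were Gm11940 (0.999), Pla2g4f (0.94), Tmprss4 (0.94), Gm17099 (0.94) and Acsl1 (0.93). Gm11940 is the antisense gene that overlaps Krt10, and its counts were 37.8% to 45% of those of Krt10 in every library. Among the members, Krt5 and Krt14 had an r of 0.93, Krt15 and Krt78 of 0.97, Krt77 and Krt80 of 0.92, and Krt1 and Krt10 of 0.78. The libraries share stage and genotype groups, and mock replicate 1 lies low for nearly all members, so these values are a description.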

How the data were processed

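RNA from sorted cells was made into libraries with the Ovation SoLo RNA-Seq system and sequenced on an Illumina HiSeq. The submitters' processing notes name Trimmomatic 0.36, STAR 2.5.3, HTSeq 0.9.1, DESeq2 and the mm10 build, without their roles. The deposited file holds unnormalized counts, as whole numbers for 52636 Ensembl gene IDs. Use of strand, the annotation release and removal of PCR duplicates are not given in the sources used here, so intervals of counts speak of counting error only. Keratins share similar stretches, and reads that fit several of them may have been dropped or split.

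The analysis ran in R 4.3.3 and used edgeR 4.0.16. Each comparison used the libraries of its groups (4 groups for an interaction), filterByExpr at its defaults (minimum count 10), TMM scaling and the two-sided quasi-likelihood F test, with Benjamini-Hochberg adjustment over all genes tested. Called genes had an adjusted p under 0.05 together with a change of more than 2-fold. CPM were taken on TMM-scaled sizes of 17 libraries and per kb of the longest coding transcript in GENCODE. SE are those of the log2 fold change. Correlations used log2 CPM with a prior count of 2. The fits were tested on simulated data.

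The members were given by symbol. From each list up to 3 called genes in each direction with the smallest p could be named, and not all of them are. Members and lists were chosen with earlier results of these data known. Alternatives were DESeq2 1.42.0, the exact test, RLE or plain scaling, no filter or a mean count of at least 10, a fit of all libraries together, a replicate block, the identical columns kept apart, and each library left out in turn. Other experiments of the study were not analyzed here.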

Additional observations from a re-analysis of the deposited data

How the results depend on the processing

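Called members were counted anew under each alternative, with the share of all genes called in brackets. From treated skin to tumor, the 3 called in fl/fl (18%) became 5 with DESeq2 (21%) or the exact test (23.3%). They became 6 without the low-count filter (12.9%) and 1, Krt77, in a fit of all libraries (15.2%). The 6 called in ΔEP (26%) became 2 in a fit of all libraries (19.2%), in which Krt5, Krt14, Krt10 and Krt78 were lost. From mock skin to tumor, the 2 in fl/fl (4.11%) became 5 with DESeq2 (14.3%), the exact test (13.4%) or no filter (7.64%). They became 4 with plain library sizes (8.02%) or a fit of all libraries (17.6%). They became 1 with RLE scaling (4.09%) or a mean count of at least 10 (3.32%). The 4 in ΔEP (14.3%) became 6 with DESeq2 (18.7%) or the exact test (22.4%) and 7 without the filter (13.1%). Without the filter, 3 members were called between treated and mock skin in ΔEP (0.654%), where none was called with it. Likewise, 2 were called between genotypes in treated skin (0.646%), where none was called with it. The cause was not tested. Leaving out each library in turn gave 1 to 4 called members from treated skin to tumor in fl/fl (7.21% to 24.3%). In ΔEP it gave 3 to 7 (17.5% to 29.2%). From mock skin to tumor it gave 0 to 6 in fl/fl (0.181% to 21%). In ΔEP 0, 0 and 1 were called without tumor replicate 1, 2 or 3 (2.75%, 0.709% and 1.51%). From mock to treated skin in fl/fl 0 to 5 were called (0% to 15.1%). Between genotypes in tumors 0 to 3 were called (0% to 16.9%). For the interaction of tumor and treated skin the range was 0 to 1 (0% to 7.53%). Krt77, Krt14, Krt15, Krt78 and Krt80 kept their signs under every alternative in which they were tested for the 4 tumor comparisons. Counts of 3 to 19 per library for Krt2, and of 5 to 27 per tumor for Krt77, limited the precision of their values.

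Same-numbered replicates did not all deviate together in any comparison with 3 pairs (correlations from −0.59 to 0.41), although some pairs did. By replicate they were 0.19, 0.30 and −0.07 between genotypes in tumors, and 0.11, 0.21 and −0.05 for tumor against treated skin in ΔEP. Between 0 and 4 of 6 samples correlated best with their own number, with 4 in each of these 2 comparisons. The numbers were not taken to pair the samples. In the 3 comparisons with mock ΔEP, which have 2 pairs each, all correlations were above 0. They were 0.823 and 0.626 between genotypes in mock skin and 0.618 and 0.137 for treated against mock skin. For tumor against mock skin they were 0.125 and 0.154. With 2 libraries in mock ΔEP, the deviations from their mean mirror each other, so the 2 correlations are not independent. These values therefore cannot show whether the numbers pair the samples. In mock skin the block moved the genotype calls from 0 to 110 of all genes, with 0 members among them. With the replicate block, 5 members in place of 6 were called between tumor and treated skin in ΔEP, against 25.4% of genes. Krt10 was lost there (−1.55, edgeR adjusted p = 0.0907). Between tumor and mock skin in ΔEP 2 in place of 4 were called, against 6.24% of genes. Krt15 (adjusted p = 0.190) and Krt78 (0.135) were lost there. In fl/fl Krt80 was called in place of Krt15 beside Krt77 between tumor and mock skin, against 1.59% of genes. Between treated and mock skin in ΔEP 1 in place of 0 was called, against 0.271% of genes (Krt77, −2.88, adjusted p = 0.0441). Differences that changed sign under the block were, from mock skin to tumor, Krt5 (−0.071) and Krt2 (−0.17) in fl/fl and Krt1 (1.23) in ΔEP, from mock to treated skin Krt14 (−0.11) in ΔEP, between genotypes Krt10 in tumors (0.0032), Krt14 in treated skin (−0.037) and Krt5 (0.013), Krt77 (0.092) and Krt80 (0.091) in mock skin, and Krt80 (0.060) for the interaction of tumor and treated skin. Plain library sizes gave −0.21 for Krt5 and −0.24 for Krt2 from mock skin to tumor in fl/fl. Keeping the identical columns apart gave −0.061 for Krt14 from mock to treated skin in ΔEP, 0.18 for Krt5, 0.16 for Krt1, 0.12 for Krt10, 0.21 for Krt77 and 0.065 for Krt78 between genotypes in mock skin, and −0.26 for Krt10 in the interaction of tumor and mock skin.

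Leaving out 1 library gave these ranges. For tumor against treated in fl/fl, the log2 difference changed sign for Krt5 (−0.22 to 1.24) and Krt1 (−0.78 to 0.39). For tumor against treated in ΔEP, the log2 difference changed sign for Krt1 (−1.29 to 0.35). For tumor against mock in fl/fl, the log2 difference changed sign for Krt5 (−0.83 to 0.64) and Krt2 (−1.05 to 0.68). For tumor against mock in ΔEP, the log2 difference changed sign for Krt1 (−1.08 to 3.39) and Krt10 (−3.11 to 0.38). For treated against mock in ΔEP, the log2 difference changed sign for Krt5 (−1.41 to 0.97), Krt14 (−0.52 to 2.16), Krt1 (−0.56 to 4.24), Krt10 (−1.44 to 2.29), Krt78 (−3.40 to 0.88) and Krt80 (−2.48 to 0.64). For ΔEP against fl/fl in tumors, the log2 difference changed sign for Krt15 (−0.94 to 0.080) and Krt10 (−0.55 to 0.50). For ΔEP against fl/fl in treated skin, the log2 difference changed sign for Krt5 (−0.72 to 0.12), Krt14 (−0.47 to 0.65), Krt1 (−0.090 to 1.85) and Krt10 (−0.59 to 1.22). For ΔEP against fl/fl in mock skin, the log2 difference changed sign for Krt5 (−1.74 to 0.66), Krt14 (−2.32 to 0.37), Krt15 (−2.01 to 1.17), Krt1 (−3.73 to 0.75), Krt10 (−2.84 to 0.67), Krt77 (−2.27 to 0.73), Krt78 (−3.66 to 0.65) and Krt80 (−2.79 to 0.33). For the interaction of tumor and treated skin, the log2 difference changed sign for Krt14 (−0.21 to 1.17), Krt1 (−1.27 to 0.68), Krt10 (−1.37 to 0.45), Krt78 (−0.57 to 1.28) and Krt80 (−0.64 to 0.34). For the interaction of tumor and mock skin, the log2 difference changed sign for Krt15 (−1.30 to 1.84), Krt1 (−0.094 to 4.35), Krt10 (−0.74 to 2.73), Krt2 (−1.37 to 0.37), Krt77 (−1.33 to 1.63), Krt78 (−1.20 to 3.05) and Krt80 (−1.20 to 1.89).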
